A study of Caenorhabditis elegans with 4 samples.

Results

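The regions described here are the 650 peaks of the transcription factor ELT-3 on chromosome II of Caenorhabditis elegans. They were chosen by position alone, as every row of the combined peak list that names chromosome II, and they are 650 of the 3936 peaks in that list. The same rule gave 292 of 1667 peaks in the list of ChIP replicate 1 and 651 of 3939 in that of ChIP replicate 2. For comparison the combined list held 674 peaks for III, 616 for IV, 640 for V and 668 for X. ELT-3 binding was measured by chromatin immunoprecipitation with sequencing (ChIP-seq), in which DNA crosslinked to a protein is pulled down with an antibody, sequenced and set against input DNA from the same lysates.

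All samples were embryos of strain OP75, from a population of males and hermaphrodites grown at 20 °C and crosslinked with 2% formaldehyde. The strain has the unc-119 mutation ed3 and the transgene wgIs75, introduced by bombardment, which encodes ELT-3 with TY1, EGFP and FLAG tags and restores unc-119. The tagged protein, made from this added copy in a single strain, was collected with a goat antibody against EGFP. By their titles there were 2 ChIP and 2 input samples; the description fields differ in part from the titles. Nothing in the labels tells if the ChIP samples came from separate cultures, and no test below uses them as replicates.

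ELT-3 is a zinc finger protein of the GATA family, which binds DNA around the sequence GATA. It is known from the epidermis (hypodermis) of the worm, the tissue that secretes the collagen cuticle, where it acts after ELT-1, the GATA factor that sets epidermal fate in the embryo. C. elegans autosomes have a central region rich in conserved genes and outer arms with more repeats and more recombination. Chromosome II is an autosome of this kind. Positions below are on WormBase WS180, the build named in the file headers, and genes and sequences at these positions were not analysed here.

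The only value per peak is a number that the authors deposited as a q-value. Each of the 650 deposited numbers equalled 1 binomial tail with probability 0.5, to a relative tolerance of 1e-11, and so gave 1 ChIP tag number and 1 scaled control tag number. It is called the peak probability here, and the tag ratio is ChIP over control tags. Tag numbers are therefore derived values, and the read depth of each library is unknown. Ratios have an exact (Clopper-Pearson) 95% interval that covers counting error only. The interval takes the scaled control number as a plain count, so its true coverage is unknown. Over II, the peaks of the combined list had 24 to 512 ChIP tags with a median of 70.0, and 3 to 209 control tags with a median of 24. The replicate 1 peaks on II had 20 to 239 ChIP tags, with a median of 53. Of the combined intervals on II, 450 (69.2%) had identical ends in replicate 2, and tag numbers were the same for all 450. Combined and replicate 2 values are thus largely 1 measurement, while replicate 1 had 3 intervals in common with the combined list and no equal tag numbers.

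The 20 first-ranked peaks on II that were found in both replicate lists are given next. The leading peak, at chrII:14404852-14407314, was also the widest on II with 2463 bp. It had 512 ChIP tags against 170 control tags in the combined list and in replicate 2, and 239 against 67 in replicate 1. This gave a ratio of 3.01 (2.53 to 3.60), and in replicate 1 one of 3.57 (2.71 to 4.75). It ranked 15th in the whole combined list and 16th in each replicate list, so the peak probability put a wide peak of moderate ratio first.

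The second peak, at chrII:12942396-12942793, was 398 bp wide and had 206 ChIP tags against 23 control tags in the combined and replicate 2 lists, and 128 against 13 in replicate 1. The combined ratio was 8.96 (5.81 to 14.4), and that of replicate 1 was 9.85 (5.56 to 19.0). It had the highest lower bound of the ratio of all 650 peaks. The peak at chrII:1850767-1851200 came close, with ratios of 8.37 (5.19 to 14.3) and 9.44 (4.75 to 21.4) from 159 and 85 ChIP tags. The next 3 by this bound were chrII:11759246-11759542 with 8.08 (4.52 to 15.7), chrII:1949182-1949452 with 7.64 (4.06 to 15.9) and chrII:2800827-2801230 with 5.78 (3.96 to 8.70). In replicate 1 these 3 had ratios of 6.78, 7 and 5.52. Of the 5 peaks with the highest bound, 3 lay in the first 3 Mb of II, where peaks were few.

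Other first-ranked peaks were broad. The peak at chrII:6712149-6713268 had 326 ChIP tags against 77 control tags in the combined and replicate 2 lists and 190 against 48 in replicate 1, a ratio of 4.23 (3.29 to 5.50) and 3.96 (2.87 to 5.55). The peak at chrII:11634786-11636451 reached 2.97 (2.42 to 3.66) and was split into 2 peaks in replicate 1. The peak at chrII:13290568-13292027 was also split there, and its better part ranked 358th in replicate 1 against 51st in the combined list. In all, 5 combined peaks on II overlapped more than 1 replicate 1 peak. Between these extremes, the peak at chrII:9127978-9128509 reached 5.05 (3.64 to 7.14), and 4.52 (3.00 to 7.01) in replicate 1.

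Across the 20 peaks the ratio ran from 2.34 to 8.96 in the combined list, with a median of 4.26, and from 2.57 to 9.85 in replicate 1, with a median of 3.86. Replicate 1 gave the higher ratio at 9 of the 20, and at none of the 20 were the intervals of the 2 lists apart. Of the 20, 18 were within the first 120 ranks of replicate 1. The peaks were chosen by rank and by presence in both lists, so this is a description. By position 4 lay in the first, 10 in the central and 6 in the last of 3 equal parts of II. These parts held 159, 253 and 238 of the 650 peaks.

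**Figure D1:**
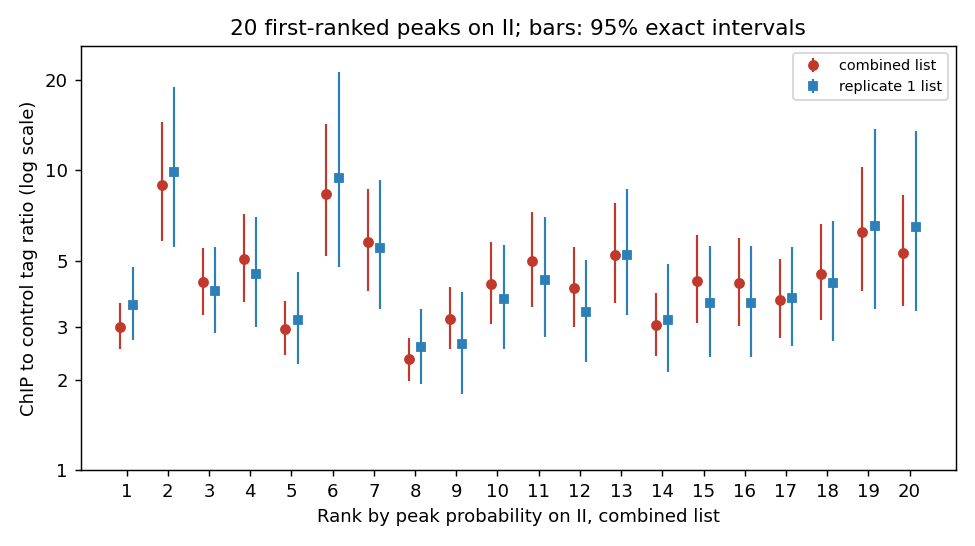
ChIP to control tag ratio (log scale) of the 20 first-ranked peaks on II found in both replicate lists, by rank on II, with 95% exact intervals. Circles show the combined list and squares the overlapping replicate 1 peak of best probability; the ratios run from 2.34 to 8.96 and from 2.57 to 9.85, and the intervals of each pair overlap.

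Peaks on II were unevenly spread, and the 2 ends of the chromosome differed. The comparison of the 2 ends was chosen after the positions on II had been seen. The p-values given for it do not cover that choice. When the extent, from base 1 to the highest peak end of 15.3 Mb, was divided into 3 equal parts, the first held 31.3 peaks per Mb, the central part 49.7 and the last part 46.8. The last part had 238 peaks against 159 in the first, 1.5 times as many (exact binomial test, two-sided, adjusted p = 0.000431 over II, III, IV, V and X). In replicate 1 it had 1.80 times as many (exact test, adjusted p = 0.00111) and in replicate 2 1.52 times (exact test, adjusted p = 0.000232). The combined and replicate 2 lists are largely 1 measurement, and 286 of the 292 replicate 1 peaks on II overlapped a replicate 2 peak. These results are therefore not separate support for each other. Of the peaks in the outer parts, 59.9% (Wilson 55.1 to 64.7) were in the last part on II, against 48.1% on III, IV, V and X together (Fisher's exact test, two-sided, p = 2.52e-05).

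The chromosomes were also compared one by one. III had 52.9% of its outer peaks in the last part, IV had 43.9%, V had 44.7% and X had 50.0%. II was above each in Fisher's exact test, with adjusted p over 4 comparisons of 0.0472 for III, 4.06e-05 for IV, 6.39e-05 for V and 0.00585 for X. IV and V had fewer peaks in the last part than in the first, 0.784 and 0.809 times as many. The tests against them, and the pooled one, thus also take in a lean the other way. Which end counts as first is set by the position numbering. The size of the lean to either end was not compared between chromosomes. In replicate 1 the difference from X did not pass, with 64.3% on II and 55.2% on X (Fisher's exact test, adjusted p = 0.09), while those from III, IV and V did (0.00212, 0.00287 and 0.00161). No other of these chromosomes had ends that differed past the threshold of 0.05 in the exact binomial test (adjusted p from 0.0556 to 1). This division was examined after the positions on II had been seen. Neighbouring peaks are not independent, so all p-values over peaks are too small. With peaks linked by gaps of 2 kb or less counted as 1, the last part of II had 1.58 times as many (exact test, adjusted p = 0.00019). This linking joins close neighbours only. Dependence over longer distances is not covered, so that p-value does not meet this limit.

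Control tags per kb of peak had medians of 88.5 in the first, 102.6 in the central and 87.25 in the last part of II, so the outer parts had nearly the same control level within peaks. The median tag ratio was 2.91, 2.77 and 2.96 in the 3 parts and the median width 259, 265 and 295.5 bp.

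**Figure D2:**
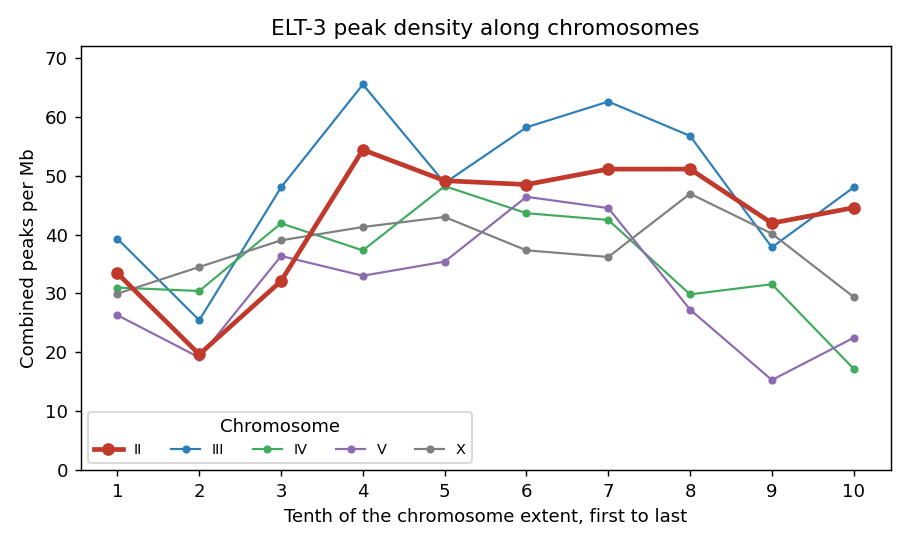
Combined peaks per Mb in 10 equal parts of the chromosome extent, for II (thick line) and for III, IV, V and X. On II density was 19.7 in the part numbered 2 of 10, 54.4 in part 4 and 44.55 in the last, where III had 48.0, X 29.4, V 22.5 and IV 17.2.

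In steps of 1 Mb, the peak count on II was 32 in the first Mb and then 25, 24 and 30. It was 44 between 4 and 5 Mb and 56 between 5 and 6 Mb, and no later full Mb held fewer than 36, the count between 12 and 13 Mb. The highest count was 57, between 10 and 11 Mb. Replicate 1 had 15, 10, 10 and 10 peaks in the first 4 steps, 33 between 5 and 6 Mb and 28 between 14 and 15 Mb. The high count between 5 and 6 Mb thus stood in the shorter list too. The contrast of early and later counts held there only in part. Replicate 1 had 14 peaks between 4 and 5 Mb and 12 between 12 and 13 Mb, fewer than the 15 of the first Mb. The longest stretch with no peak midpoint was 230.0 kb, between the peaks that end at 1590238 and start at 1819888. The step from 1 to 2 Mb, which holds this stretch, had the highest median tag ratio of all steps, 3.58 over 25 peaks, against 2.64 to 3.25 in the others.

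The central part of II held 253 of 650 peaks, 38.9% (35.25 to 42.7), against 39.8% over all chromosomes. This was above an even spread of 33.3% (exact binomial test, two-sided, p = 0.00273), but not with linked peaks counted as 1, where the share was 37.1% (exact p = 0.0691), nor among the better-scoring 50% of peaks, where it was 38.0% (exact p = 0.0858). The difference between II and the other 4 chromosomes was -0.07 percentage points (Fisher's exact test, adjusted p = 1.0 over 4 measures).

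Per Mb of extent, II had 42.6 peaks. It was less dense than III, with 49.0 (ratio 0.869, exact 95% interval 0.779 to 0.969; exact test, adjusted p = 0.014), and denser than IV, with 35.4 (1.2, 1.08 to 1.35; exact test, adjusted p = 0.00195). It was also denser than V, with 30.6 (1.39, 1.25 to 1.55; exact test, adjusted p = 1.42e-08), and than X, with 37.8 (1.13, 1.01 to 1.26; exact test, adjusted p = 0.0312). The differences from III and X did not pass the test in replicate 1 alone (exact test, adjusted p = 0.199 and 0.143) or among the better-scoring 50% (0.104 and 0.106), and with linked peaks counted as 1 that from X did not (0.312).

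Close neighbours made up a larger share on II than on III, IV, V and X pooled in the combined list, but not past the threshold in several alternatives, and II was not tested against III alone. Of 649 gaps between neighbouring midpoints, 105 were 2 kb or less, 16.2% (13.6 to 19.2), beside 12.9% over all chromosomes. On III, IV, V and X the share was 12% (10.8 to 13.3; Fisher's exact test, adjusted p = 0.023 over 4 measures), with 15.2% for III alone and 9.86 to 11.7% for each of the others. The difference did not pass the test in either replicate list alone, with 15.5% against 12% in replicate 2 (Fisher's exact test, adjusted p = 0.0709) and 9.97% against 7.28% in replicate 1 (0.565), nor among the better-scoring 50%, with 9.06% against 7.88% (0.657), nor for gaps of 5 kb or less, with 31.4% against 26.9% (0.0853). The difference did pass for gaps of 1 kb or less, with 6.16% against 3.82% (Fisher's exact test, adjusted p = 0.0489). It also passed for peaks of 50 bp or more, with 16.3% against 11.4% (0.0054). Measured from edge to edge it was 18.2% against 14.1% (0.0385). The median gap on II was 11524 bp, against 11059 bp on III and 16533 to 17995 bp on IV, V and X. More peaks per Mb bring shorter gaps by themselves. II had more peaks per Mb than IV, V and X and fewer than III, and the share of close gaps was not adjusted for this.

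**Figure D3:**
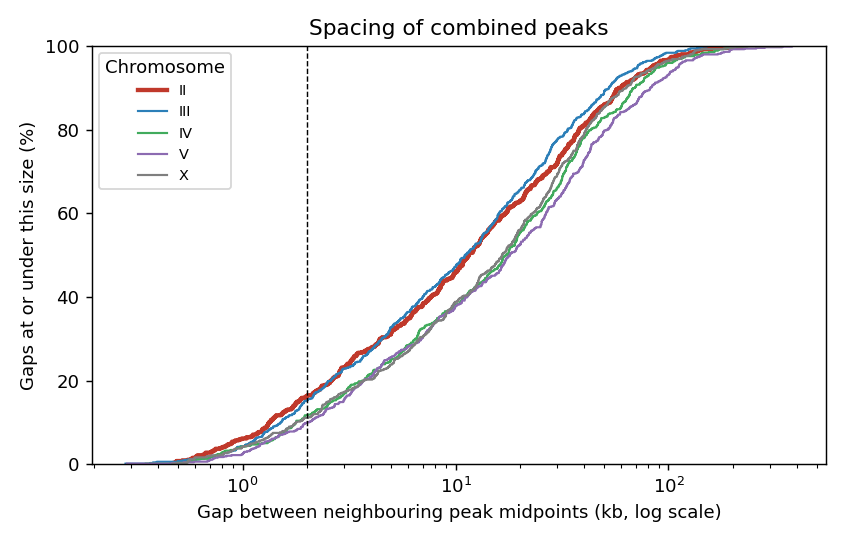
Share of gaps between neighbouring midpoints of combined peaks at or under each size (log scale), for II (thick line), III, IV, V and X. At the dashed line of 2 kb, II stands at 16.2% and V at 9.86%. There the curves of II and III lie above those of IV, V and X. The order does not hold at every size, since the smallest gap is 462.5 bp on II, 351 bp on IV and 286.5 bp on V.

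Linked by gaps of 2 kb or less, 189 of the 650 peaks (29.1%) formed 84 chains, of which 68 were pairs, 11 were triplets and 5 held 4 peaks. The share of peaks in chains was nearly the same on III, 27.7%, and was 22.1% on IV, 17.5% on V and 19.8% on X. These shares were not tested. Chained peaks had a median width of 312 bp and a median ratio of 2.76, and the 461 others 253 bp and 2.93. Of the chained peaks 48.1% were found in both replicate lists, against 41% of the others, a difference that was not tested. Of the 5 chains of 4, the one at chrII:7055663-7061309 held the best-ranked peak, 22nd on II. The chain at chrII:3437074-3440013, in the thinly filled first part, had none of its 4 peaks in replicate 1.

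The densest 20 kb on II, at chrII:6821905-6841445, held 10 combined peaks, of which 6 were found in replicate 1. Their ratios were low, from 1.58 (1.23 to 2.05) at chrII:6831298-6832134, the lowest of all 650 peaks, to 3.08 (1.92 to 5.11) at chrII:6832999-6833313. The best-ranked of the 10, at chrII:6829041-6829670, had 157 ChIP tags against 62 control tags in the combined and replicate 2 lists and 68 against 28 in replicate 1, ratios of 2.53 and 2.43, and stood only 82nd on II. The 10 peaks covered 3954 bp with a median of 111.8 control tags per kb, against 93.65 for all peaks on II. The window stops short of a peak linked to its last member, at chrII:6842486-6843120. That peak stood 17th on II with a ratio of 3.70 (2.75 to 5.05), so the ranks and ratios given depend on where the window ends.

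A second group was made of wider peaks with more tags but low ratios, with a median width of 869 bp and a median ratio of 2.30. At chrII:5319917-5339031 lay 8 peaks that covered 8138 bp, and 6 of them were found in both replicate lists. The peak at chrII:5321571-5323353 had 490 ChIP tags against 209 control tags in the combined and replicate 2 lists and 180 against 70 in replicate 1, with ratios of 2.34 (1.99 to 2.77) and 2.57 (1.94 to 3.44). The peak at chrII:5325773-5327574 reached 2.29 (1.90 to 2.76), while chrII:5329817-5331158 reached 3.05 (2.41 to 3.90). These 3 were 1342 to 1802 bp wide and ranked 8th, 26th and 14th on II. Their ratios were below the median of 4.26 of the 20 first-ranked peaks, and they had 287 to 490 ChIP tags.

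The peaks on II varied from 1 to 2463 bp in width, with a median of 272 bp. Other chromosomes had medians from 252.5 bp (III) to 293 bp (X). The median tag ratio on II was 2.85, with quartiles of 2.45 and 3.58, and it was 3.00 on III and IV, 2.90 on V and 2.68 on X. These values were not tested. On II 9 peaks were 1000 bp wide or more, all found in both replicate lists; III and IV had 8 such peaks each, V 4 and X 19. The share found in both lists was 83.0% for widths from 600 to under 1000 bp, 54.5% from 300 to under 600 bp, 36.4% from 150 to under 300 bp and 14.1% from 50 to under 150 bp. Width itself enters what counts as an overlap, and the order was not tested.

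Under 50 bp there were 28 peaks, 4.31% (3.00 to 6.16) of those on II, beside 4.78% over all chromosomes and 5.08% on III, IV, V and X (Fisher's exact test, adjusted p = 0.638). Of these 28, 2 were found in both lists. They had medians of 29 ChIP and 7 control tags and a median ratio of 4.29, and 5 of them spanned 5 bp or less. No combined peak on II had a peak probability above 0.000321, so a peak with few tags can be listed only at a high ratio. The narrowest, at position 9678602, was 1 bp wide with 28 ChIP and 6 control tags (ratio 4.67, 1.90 to 13.8). The highest ratio on II, 9, also stood on a narrow peak, at chrII:12048901-12048956, where 27 against 3 tags left an interval of 2.77 to 46.4. Ratios of 5 or more were found at 33 peaks on II, 12 of them under 150 bp wide, and ratios under 2 at 16.

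**Figure D4:**
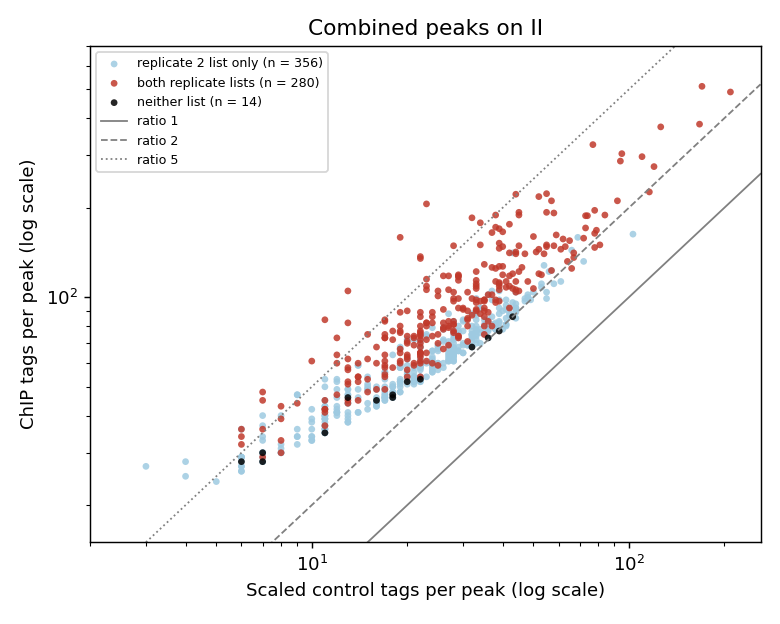
ChIP tags against scaled control tags (both log scales) for the 650 combined peaks on II, with lines of ratio 1, 2 and 5. The 280 peaks found in both replicate lists have a median of 90 ChIP tags, the 356 found in replicate 2 only 59, and the 14 found in neither 46.5.

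Whether the replicate lists marked the same places on II was compared last. Of the 292 replicate 1 peaks on II, 286 overlapped a replicate 2 peak, 97.9% (95.6 to 99.1), beside 97.8% over all chromosomes. Of the 651 replicate 2 peaks, 280 overlapped a replicate 1 peak, 43.0% (39.3 to 46.8), beside 40.9%. Neither share differed from that on III, IV, V and X past the threshold, with 97.7% and 41.5% there (Fisher's exact test, adjusted p = 1.0 for both). Of the 650 combined peaks, 280 (43.1%, 39.3 to 46.9) overlapped a peak of both lists, beside 40.9% over all chromosomes and 41.5% on the other 4 (Fisher's exact test, adjusted p = 0.638). The lists may share tags, so these overlaps are a description.

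The share found in both lists was lower at later ranks, which was not tested. It was 97.7% among the first 130 peaks on II, then 66.2%, 37.7%, 10.0% and 3.85% in the next 4 groups of 130. Median ChIP tags in these groups were 125.5, 81, 64.5, 58 and 47, and median ratios 3.61, 3.00, 2.81, 2.63 and 2.61. By position the share was 37.7% in the first part of II, 45.5% in the central and 44.1% in the last, a difference that was not tested.

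At 274 places on II 1 replicate 1 peak matched 1 replicate 2 peak. Replicate 1 had fewer ChIP tags at 271 of them, with medians of 52.5 and 88.5, and was narrower at 246, with medians of 261.5 and 325.5 bp. The tag ratios were close, with medians of 3.34 in replicate 1 and 3.22 in replicate 2, and the log2 difference of replicate 1 minus replicate 2 had a median of 0.04 and quartiles of -0.07 and 0.18. Replicate 1 was higher at 160 places, and the intervals overlapped at each of the 274. Over the 274 places the log2 ratios had a Pearson correlation of 0.87 and a Spearman correlation of 0.87. These are given as a description, since paired peaks share their position, their caller and possibly their control.

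**Figure D5:**
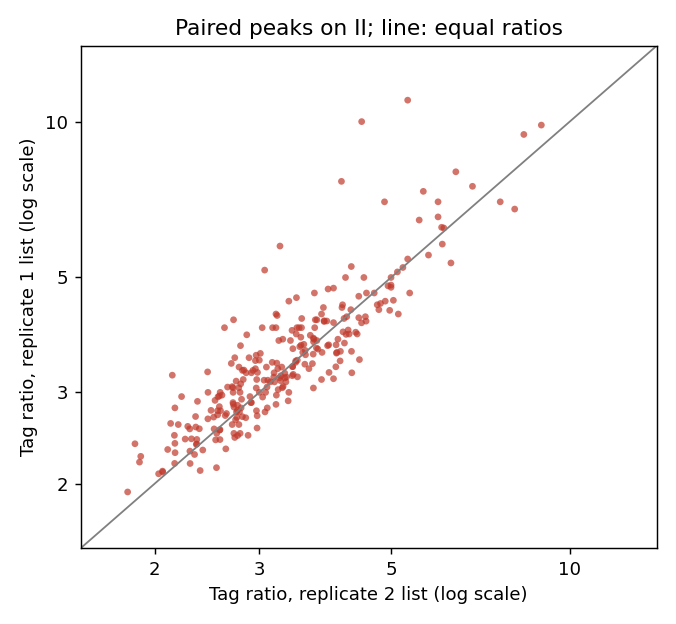
Tag ratio in replicate 1 against replicate 2 (log scales) for the 274 places on II where 1 peak of each list matched, with the line of equal ratios. Points lie about the line (median log2 difference 0.04), and the farthest, 1.16 on the log2 scale, lies on the side of replicate 1.

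Some peaks on II stood in 1 list alone. The 6 replicate 1 peaks with no partner began at rank 881 of that list, at chrII:3994525-3994975, with 114 ChIP and 58 control tags and a ratio of 1.97 (1.42 to 2.75). The best-ranked combined peak not found in replicate 1, at chrII:7058972-7059647, was 50th on II, with 141 against 43 tags and a ratio of 3.28 (2.32 to 4.73). It is a member of the chain at chrII:7055663-7061309. The 14 combined peaks found in neither list, 2.15% of those on II, began at rank 360 on II, at chrII:4747077-4747248 with 46 against 13 tags and a ratio of 3.54 (1.88 to 7.14). Of these 14, 5 lay in the first part of II, 7 in the central and 2 in the last. The share found in neither list was lower on the other chromosomes compared, between 0.89% (III) and 1.56% (V). This difference was not tested.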

How the data were processed

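The authors deposited 3 peak lists, 1 for each ChIP sample and 1 combined. Per the file headers the build is WormBase WS180, and the source column names PeakSeq as caller. How reads were aligned and lists combined is not stated in labels or headers. Each deposited q-value per peak (unit: p-value) was looked up among binomial tails of up to 3000 tags. The lookup, overlap and spacing code was tested on simulated data. A shared peak is one with 1 bp or more in common. Shares have 95% Wilson intervals. Fisher's exact tests and exact binomial tests were two-sided with Benjamini-Hochberg adjustment. Medians were not tested, because peaks are no replicates. The tests of counts and shares do take each peak or gap as an independent trial, so their p-values are too small. Positions named are the 20 first-ranked II peaks in both lists, the 5 with the highest lower ratio bound, the densest 20 kb window, the first single peak of each kind, and the widest and narrowest; the second window, chains and extreme ratios were chosen after their values were seen. Members and lists were chosen with earlier results of these data known. No reference sequence or annotation of WS180 was used, so the listed genes and the GATA motif were not analysed. Computing used scipy 1.17.1, pandas 2.3.3 and numpy 2.4.6 under Python 3.11.15, and plotting matplotlib 3.10.9.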

Additional observations from a re-analysis of the deposited data

How the results depend on the processing

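The comparison of the 2 ends of II, with all its alternatives, and the counting of linked peaks as 1 were chosen after seeing the data. Counted over results and alternatives, 54 values kept their direction and call, or for medians moved little, 11 kept their direction and lost the call, 10 changed sign and 3 medians moved. The higher count at the last end of II, alone and against III, IV, V and X pooled, kept its call in every alternative run. These runs draw on overlapping sets of peaks and are not separate support. Against X alone the call was lost in replicate 1. The higher density of II than of IV and of V kept its call in every alternative run. Several other results lost the threshold in some alternatives. For density, the log2 ratio of II over III was -0.20 in the better-scoring 50% and -0.21 to -0.16 without replicate 1 or 2, with the call lost without replicate 2 and kept without replicate 1. That of II over X was 0.19 in the better-scoring 50%, 0.0883 with linked peaks counted as 1 and 0.17 to 0.19 without replicate 1 or 2, where again it lost the call without replicate 2 and kept it without replicate 1. The excess of close gaps on II was 1.18 points in the better-scoring 50%, 4.56 points for gaps of 5 kb or less and 2.69 to 3.53 points without replicate 1 or 2. The central share above an even spread was 4.67 points in the better-scoring 50% and 3.73 points with linked peaks counted as 1. Differences that did not pass the test in any setting changed sign: the share in both lists (-1.38 points, better-scoring 50%), the central share (0.34 points for peaks of 50 bp or more and 0.0235 to 4.2 without replicate 1 or 2), narrow peaks (-1.19 to 0.681 without replicate 1 or 2), shared replicate 1 peaks (-1.85 with a reciprocal overlap of 50%, -2.34 with midpoints within 100 bp, -0.732 in the better-scoring 50% and -0.271 for 50 bp or more) and shared replicate 2 peaks (-0.786, better-scoring 50%). The median width was 337 bp and the median ratio 3.22 in the better-scoring 50%; without replicate 1 or 2 the ratio was 2.85 to 3.31. Fewer peaks enter the replicate 1 list and the better-scoring 50%; the cause was otherwise not tested. Results on gene lists and motifs were not run here. No paired analysis was possible because inputs hold no values of their own in these lists.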
